A study of Mus musculus with 8 samples.

Results

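RNA polymerase II, its general transcription factors and the Mediator complex form the machinery that transcribes every protein-coding gene, and their RNAs were examined here in mouse embryos at the 2-cell stage. The members were all genes of the deposited table whose symbols named a Polr2 subunit, a Gtf2a to Gtf2h factor or a numbered Med subunit, with pseudogenes left out. This gave 56 of 55487 genes: 13 Pol II genes, 13 general factor genes and 30 Mediator genes. The rule used gene names alone and no measured value, but it was set with earlier results of these data known.

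The series asked how knockdown of Polq, which encodes DNA polymerase theta, changes the embryo's RNA. CasRX, an RNA-guided nuclease that cuts RNA, was injected into zygotes 20 h after human chorionic gonadotropin, and total RNA was taken 10 h later. The 4 control libraries came from wild-type embryos that received CasRX without a Polq guide, and the 4 knockdown-labelled libraries from embryos that received CasRX and a Polq-targeting gRNA. Each library was made from a pool of 5 embryos, so both groups share the injection and the nuclease and differ in the guide. The labels name no control guide and no mouse strain. The 4 libraries of a group are described as biological replicates, and no library pair was alike within counting error (chi-square per degree of freedom of at least 45.6 in all 28 pairs).

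Pol II is an enzyme of many subunits, several of which are also parts of RNA polymerases I and III. General factors (TFIIA, TFIIB, TFIIE, TFIIF and TFIIH, together with TFIID) place the enzyme at a start site and open the DNA, and Mediator carries signals from DNA-bound activators to it through its head, middle, tail and kinase modules. In the mouse, the 2-cell stage is when the embryo's own genome is first transcribed at a high rate, on a background of RNA stored in the egg. Because these are pools of whole embryos, a change in the number of intact cells and a change in RNA per cell cannot be told apart. Levels are scaled to each library's counts, so a change common to all RNAs would not show in them.

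Control libraries held 33311665 to 43748621 counts. Knockdown-labelled replicates 1 to 3 were shallower at 4726159, 8627403 and 8100969, and replicate 4 held 33650050. The groups overlapped in Polq itself: its level in counts per 1000000 (CPM, scaled by TMM) was 34.5, 49.5, 40.0 and 32.5 in control replicates 1 to 4 and 16.8, 38.7, 29.1 and 40.9 CPM in knockdown-labelled replicates 1 to 4, and a 2-sided exact permutation test gave p = 0.343 (0.0286 is the smallest it can give). The libraries are therefore named by their label, and a direction is always knockdown-labelled minus control. Of 10 markers of the egg and the 2-cell embryo, all were detected (summed level 3709.6 to 6741 CPM in the controls and 4159 to 6709 CPM in the knockdown-labelled group). The 10 cumulus and granulosa cell markers summed to 0 to 24.5 and 0.790 to 10.6 CPM, with Has2, Ptx3, Fshr, Foxl2 and Inha at 0 in all 8 libraries. The 8 blood markers summed to 12.3 to 27.6 and 8.86 to 32.9 CPM, with Hbb-bs, Hbb-bt, Alas2 and Lyz2 at 0 in all 8. The 8 markers of later lineages summed to 14.9 to 27.7 and 24.5 to 32.3 CPM, with Cdx2, Sox17 and Krt8 at 0 in all 8. Passing the filter on low counts were Tnfaip6 of the cumulus and granulosa markers and Hba-a1, Hba-a2 and Cd52 of the blood markers. Of the later lineage markers, Gata6, Gata4 and Nanog passed it. The part of these lists in the results was not tested.

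All 56 members were detected, and all passed the filter on low counts, but their levels differed widely. Levels were compared between genes as CPM per kb of transcript, with the median length of a gene's protein-coding transcripts in GENCODE M21. The highest was Polr2j (2902 ± 266 CPM per kb, SD, n = 4 controls), and the lowest was Med16 (0.171 ± 0.264 CPM per kb). In the controls 42 of the 56 members lay above the median level of all 12785 tested genes with a length, 24 lay in the top 10% and 5 in the top 1%. Those 5 were Polr2j, Polr2f, Med21, Med10 and Polr2k. The order of the members was much the same in every library, with a Spearman correlation over the 56 genes of 0.943 to 0.981 in the 28 library pairs, a description across genes. Most neighbours in that order did not differ beyond their spread: only after Polr2j, Polr2f, Polr2k and Polr2c was the lowest control library of one gene above the highest control library of the next.

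**Figure D1:**
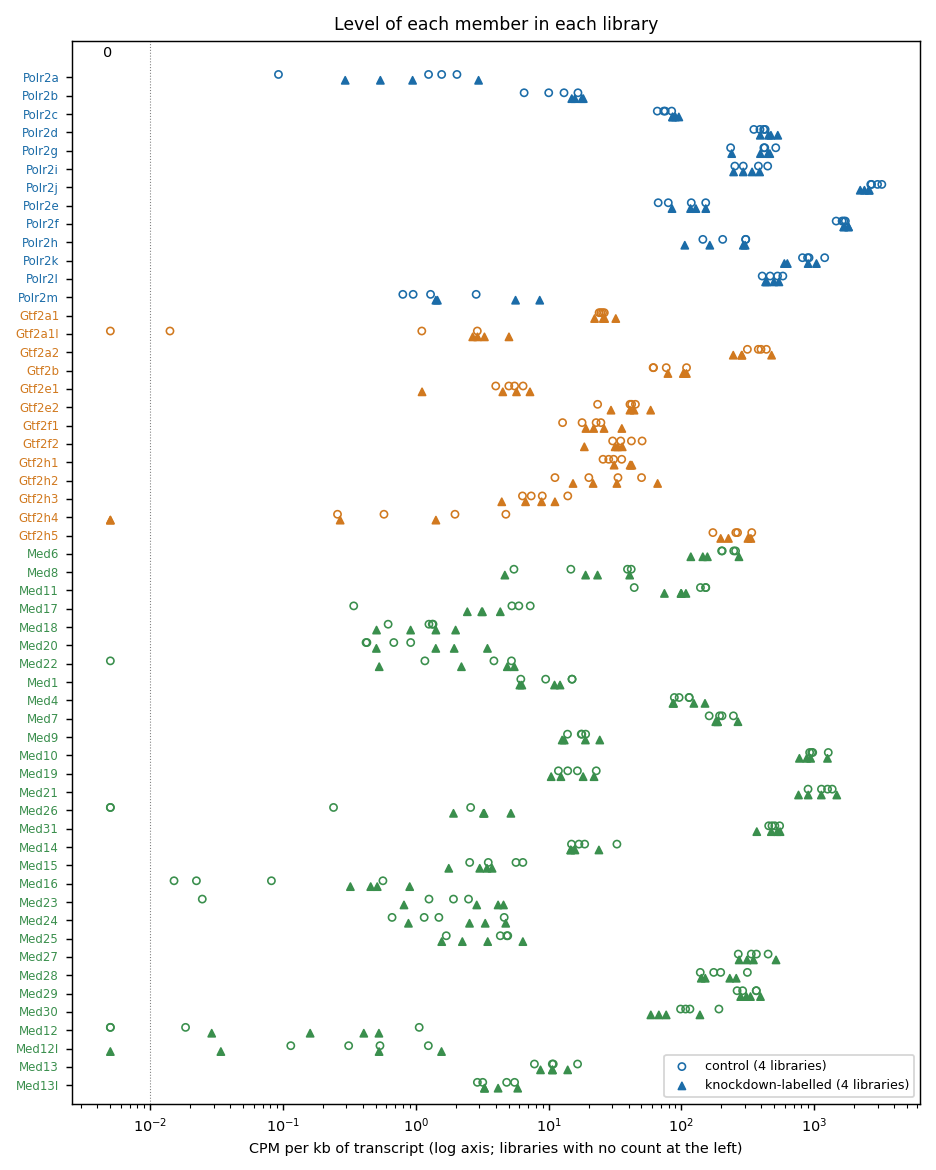
Level of each of the 56 members (rows, grouped by complex) in each library, in CPM per kb of transcript on a log axis; open circles are the 4 controls and filled triangles the 4 knockdown-labelled libraries, and libraries without a count stand at the far left. Small Pol II and Mediator subunits sit at the right, led by Polr2j at 2902 CPM per kb in the controls, and the libraries of low members such as Polr2a, Gtf2a1l, Med26 and Med12 lie far apart.

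The catalytic subunit of Pol II was among its scarcest RNAs. Polr2a encodes RPB1, which holds the active site with RPB2 and carries the C-terminal domain whose phosphorylation paces transcription. It was at 0.579, 7.81, 12.8 and 9.81 CPM in control replicates 1 to 4 and 5.93, 3.39, 1.84 and 18.6 CPM in knockdown-labelled replicates 1 to 4, from 19, 249, 561 and 423 and 30, 28, 16 and 596 counts. The libraries of each group ran from low to high with the groups overlapping throughout: control replicate 1, with 33311665 counts in all, held 19 Polr2a counts, and knockdown-labelled replicate 4, with 33650050, held 596. Per kb its control level was 1.24 ± 0.829 CPM, position 49 of 56, while Polr2b, which encodes the second largest subunit RPB2, was at 11.6 ± 4.30 CPM per kb.

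Polr2j encodes RPB11, and Polr2c encodes RPB3, which pairs with RPB11 to start the assembly of the enzyme. Polr2j was at 1724, 1939, 1748 and 2089 CPM in control and 1682, 1436, 1544 and 1664 CPM in knockdown-labelled libraries. Its level per kb was 1327 to 28916 times that of Polr2a in the controls and 868 to 8140 times in the knockdown-labelled libraries. All 8 Polr2j values lay within a narrow band, so that the width of this ratio came from Polr2a. With the longest transcript of each gene in place of the median length, a choice made after seeing the data, Polr2j still ranked 1 and Polr2a 49.

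The start regions of these 3 genes are shown because they are the scarce catalytic subunit and the assembly pair in which the groups did not overlap. Such a lack of overlap was seen in 3.57% of the members and 2.98% of all genes. With library totals alone as the scaling, Polr2j overlapped. Each is the RefSeq window (GRCm38.p6) from 250 bases before to 50 bases after the annotated start, written 5′ to 3′ along the gene, with searched motifs in capitals. Polr2a is on the minus strand at chr11:69758584-69758883, Polr2j on the plus strand at chr5:136116441-136116740, and Polr2c on the plus strand at chr8:94857200-94857499.
Polr2a: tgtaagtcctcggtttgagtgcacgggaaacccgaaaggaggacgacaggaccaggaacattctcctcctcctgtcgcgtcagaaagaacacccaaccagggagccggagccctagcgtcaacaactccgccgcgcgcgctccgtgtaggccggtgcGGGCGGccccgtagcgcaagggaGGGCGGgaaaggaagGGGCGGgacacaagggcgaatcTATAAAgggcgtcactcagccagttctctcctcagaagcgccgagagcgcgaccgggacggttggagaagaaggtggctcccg
Polr2j: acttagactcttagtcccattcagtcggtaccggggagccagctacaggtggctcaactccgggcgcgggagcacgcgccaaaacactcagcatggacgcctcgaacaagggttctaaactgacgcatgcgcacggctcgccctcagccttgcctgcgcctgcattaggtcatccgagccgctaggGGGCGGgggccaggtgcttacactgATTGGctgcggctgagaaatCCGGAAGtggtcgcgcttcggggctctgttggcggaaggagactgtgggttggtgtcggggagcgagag
Polr2c: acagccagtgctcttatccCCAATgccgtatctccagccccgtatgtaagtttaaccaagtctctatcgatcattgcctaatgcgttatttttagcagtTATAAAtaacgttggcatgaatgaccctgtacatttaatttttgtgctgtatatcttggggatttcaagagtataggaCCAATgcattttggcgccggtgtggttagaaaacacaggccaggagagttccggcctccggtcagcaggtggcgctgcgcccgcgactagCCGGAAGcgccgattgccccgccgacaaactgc
The Polr2a window held TATAAA beginning 33 bases before the start and GGGCGG at 93, 70 and 55 bases before it. The Polr2j window held GGGCGG at 64, the reverse complement of CCAAT at 39 and CCGGAAG at 19 bases before the start. The Polr2c window held CCAAT at 231 and 73 and TATAAA at 151 bases before the start, and CCGGAAG beginning 17 bases past it. Bases G and C made up 63.7%, 62.7% and 50% of the 3 windows, which held 30, 25 and 18 CG pairs.

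Windows were found for 48 of the 56 members, 56 windows in all, against 32851 windows of all genes in the table. Polr2d, Polr2g, Polr2k, Gtf2e2, Med8, Med23, Med24 and Med30 had none. Motifs were searched on both strands, and none of them holds another. Windows and not genes were counted, and the windows of Med15, Gtf2h5 and Med7 overlap and share sites. The windows of all genes were not limited to expressed genes. TATAAA, the TATA box, stood in 12.5% of the members' windows and 13.6% of all windows, and CCAAT in 32.1% and 37.4%. GGGCGG, the core of the Sp1 site, stood in 60.7% and 35.7%, CCGGAAG, an ETS site, in 28.6% and 8.86%, and CACGTG, the E-box, in 16.1% and 7.15%. The palindromic Nrf1 site stood in 0 of the 56 and in 0.971% of all windows. The members' windows had a median of 22 CG pairs and 57.8% G and C, against 7 and 52.7% over all windows, and base composition was not matched. Such matches are letters in a window and were not measured as bound sites.

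Of the other subunits that only Pol II uses, Polr2d and Polr2g form the stalk from which the new RNA leaves, and Polr2i helps with proofreading. Polr2d was at 359, 302, 368 and 336 CPM in control and 338, 458, 390.3 and 406 CPM in knockdown-labelled libraries. Polr2g was at 202, 443, 366 and 360.2 and 339, 399, 206 and 387 CPM, and Polr2i at 227, 128, 149 and 193 and 126, 148, 173 and 197 CPM. In all 3 genes the ranges of the groups overlapped, and per kb the 2 stalk genes stood next to each other in the controls (397 and 398 CPM per kb).

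The 5 subunits shared with RNA polymerases I and III were all well covered, with at least 370 counts in each library. Polr2f was at 1085, 1149, 979 and 1117 CPM in control and 1117, 1211, 1122 and 1213 CPM in knockdown-labelled libraries, the narrowest spread of the Pol II genes (SD 6.80% of the mean in the controls). Polr2k, which encodes a small zinc-binding subunit, was at 654, 499, 445 and 486 and 342, 325, 567 and 491 CPM. Polr2l was at 818 ± 125 and 788 ± 86.6 CPM (mean ± SD, n = 4, controls first), Polr2h at 165 ± 54.4 and 149 ± 66.7 CPM, and Polr2e at 119.9 ± 44.6 and 139 ± 32.3 CPM. Polr2m encodes Gdown1, a protein that binds Pol II and holds back initiation until Mediator acts. It was far lower than any core subunit other than Polr2a, at 1.71, 2.04, 6.08 and 2.76 CPM in control and 12.0, 3.03, 3.11 and 18.3 CPM in knockdown-labelled libraries. Knockdown-labelled replicates 1 and 4 lay above all controls, and replicates 2 and 3 inside their range.

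Among the general factors, the germ-cell form of TFIIA was rare. Gtf2a1 encodes the large TFIIA subunit of most tissues, and Gtf2a1l its germ-cell paralogue, which works with the TBP relative Tbpl2 in growing oocytes. Gtf2a1 was at 106, 99.9, 109 and 103 CPM in control and 107, 133, 110.02 and 92.4 CPM in knockdown-labelled libraries. Its control SD was 3.91% of the mean, the lowest of the 56 members. Gtf2a1l was at 1.80, 0, 0.0228 and 4.71 and 4.35, 5.32, 4.72 and 8.15 CPM, from 59, 0, 1 and 203 and 22, 44, 41 and 261 counts.

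All 4 knockdown-labelled libraries held Gtf2a1l reads, while control replicate 2 held 0 counts, which allows up to 0.0941 CPM for counting error, and control replicate 3 held 1. Control replicate 4 still lay inside the knockdown-labelled range, so that the groups overlapped. Gtf2a1l made up 0% to 10.5% of the 2 paralogues' summed level per kb in the controls and 9.30% to 18.5% in the knockdown-labelled libraries. Gtf2a2, the small TFIIA subunit, was at 281, 389.9, 355 and 339 CPM in control and 427, 254, 255 and 219 CPM in knockdown-labelled libraries, of which replicate 1 was above and the other 3 below all controls.

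Gtf2b encodes TFIIB, the single polypeptide that bridges TBP and Pol II. It was at 112, 159, 89.8 and 89.1 CPM in control and 153, 159, 115 and 150.4 CPM in knockdown-labelled libraries, where control replicate 2 lay above all knockdown-labelled libraries and the other 3 controls below them. TFIIE, which brings in TFIIH, had unequal subunit RNAs: Gtf2e2 was at 37.9 CPM per kb and Gtf2e1 at 5.24 CPM per kb in the controls. Gtf2e2 was at 38.2, 73.6, 67.0 and 68.9 CPM in control and 48.2, 71.9, 95.9 and 67.0 CPM in knockdown-labelled libraries. Gtf2e1 was at 16.2 ± 3.12 and 14.3 ± 8.04 CPM, with knockdown-labelled replicate 4 at 3.43 CPM. TFIIF, which binds Pol II and steadies it at the start site, has 2 subunits. Gtf2f2 was at 74.2, 44.5, 51.2 and 61.7 CPM in control and 27.3, 48.6, 46.5 and 52.6 CPM in knockdown-labelled libraries, and Gtf2f1 ran from 21.9 to 42.5 and from 32.8 to 61.1 CPM, with overlapping groups in both.

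TFIIH opens promoter DNA, phosphorylates the C-terminal domain of RPB1 and also serves in nucleotide excision repair. Its smallest core subunit, Gtf2h5, was the most abundant at 529, 269.7, 414 and 401 CPM in control and 309, 353, 495 and 521 CPM in knockdown-labelled libraries. Gtf2h1, the p62 subunit, was at 63.2, 87.4, 69.8 and 75.9 and 76.6, 102, 101 and 104 CPM. Knockdown-labelled replicates 2, 3 and 4 lay above all controls, and replicate 1 lay inside their range.

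Gtf2h4, the p52 subunit that anchors the XPB helicase, was at 7.73, 3.20, 0.934 and 0.417 CPM in control and 0, 2.30, 0 and 0.437 CPM in knockdown-labelled libraries. It had 0 counts in knockdown-labelled replicates 1 and 3, which allow up to 0.593 and 0.345 CPM, and the 254 counts of control replicate 1 held most of the control signal. Without control replicate 1 the remaining controls lay between 0.417 and 3.20 CPM. Gtf2h2 ran from 18.5 to 83.0 CPM in control and from 25.3 to 110 CPM in knockdown-labelled libraries, and Gtf2h3 from 17.0 to 37.2 and from 11.9 to 29.8 CPM.

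Mediator RNAs were unequal in the same way, with Med21 and Med10 of the middle module the highest per kb. Med21, which pairs with Med7 in the hinge of that module, was at 623, 948, 786 and 874 CPM in control and 1026, 785, 625 and 528 CPM in knockdown-labelled libraries. Med10 was at 893 ± 141 and 832 ± 181 CPM, Med31 at 578 ± 46.8 and 559 ± 94.5 CPM, and Med7 at 481 ± 83.4 and 491 ± 97.6 CPM. Med21, Med10, Med7 and Med31 made up most of the summed Mediator level of 4816 ± 330.0 CPM in control and 4562 ± 345 CPM in knockdown-labelled libraries. Med1, the subunit bound by nuclear receptors, was at 87.8, 36.1, 87.7 and 55.5 and 36.7, 64.7, 71.2 and 35.5 CPM. Med4 was at 137 ± 17.4 and 149 ± 41.3 CPM, Med9 at 32.8 ± 4.26 and 33.1 ± 10.5 CPM, and Med19 at 33.5 ± 9.82 and 32.4 ± 10.9 CPM.

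Med26, which can hand elongation factors to Pol II, was at 0, 7.75, 0 and 0.719 CPM in control and 9.68, 9.80, 5.75 and 15.6 CPM in knockdown-labelled libraries. Its counts were 0, 247, 0 and 31 in the controls and 49, 81, 50 and 499 in the knockdown-labelled libraries. It was thus present in every knockdown-labelled library and at 0 in control replicates 1 and 3, where 0 counts allow up to 0.0914 and 0.0684 CPM. Control replicate 2 lay inside the knockdown-labelled range. The counts of Med26 were not whole in 6 libraries, and its span overlaps Gm28019 on the same strand, so that reads may have been divided between them.

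Med14 is the backbone that joins the Mediator modules. It was at 122, 63.1, 69.7 and 55.4 CPM in control and 54.7, 54.8, 89.2 and 58.8 CPM in knockdown-labelled libraries, and the control and knockdown-labelled ranges overlapped. In the head, which contacts Pol II, Med6 was the most abundant member per kb at 257, 204, 249 and 202 and 118, 157, 272 and 145 CPM, where knockdown-labelled replicates 1, 2 and 4 lay below all controls and replicate 3 above them. Med11 was at 82.2 ± 35.2 and 64.3 ± 9.80 CPM and Med8 at 28.9 ± 20.5 and 25.0 ± 17.0 CPM. The core head subunit Med17 was at 28.8, 1.35, 23.6 and 20.96 CPM in control and 9.68, 12.6, 17.1 and 12.4 CPM in knockdown-labelled libraries. Control replicate 2 held 43 Med17 counts where the other controls held 904 to 1038. Med18 and Med20, which pair with each other, were at 1.90 ± 0.583 and 1.26 ± 0.484 CPM in control and 2.02 ± 1.08 and 3.76 ± 2.55 CPM in knockdown-labelled libraries. Med22 was at 2.62, 0, 11.8 and 8.67 CPM in control and 4.94, 12.3, 10.9 and 1.19 CPM in knockdown-labelled libraries, with no count in control replicate 2.

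In the tail, which binds activators, the level fell from Med27 at 355 CPM per kb in the controls, through Med29 at 321, Med28 at 206 and Med30 at 128, to 5 large subunits at 5 CPM per kb or less. The place of Med28 rests on the transcript length used: with its longest transcript it was at 33.2 CPM per kb, below Med30 at 128. Med27 was at 336, 564, 461 and 421 CPM in control and 647, 391, 341 and 437 CPM in knockdown-labelled libraries. Med30 was at 117, 193, 99.2 and 108 and 139, 68.1, 59.3 and 77.3 CPM, with knockdown-labelled replicates 2, 3 and 4 below all controls and replicate 1 inside their range. Of the large subunits, Med15 was at 15.03 ± 5.99 and 9.94 ± 2.88 CPM, Med25 at 10.4 ± 4.04 and 9.06 ± 5.66 CPM, Med24 at 2.17 to 15.1 and 2.88 to 15.5 CPM, and Med23 at 7.04 ± 5.25 and 15.4 ± 8.37 CPM. Med16 was the lowest member per kb, at 1.74, 0.251, 0.0684 and 0.0464 CPM in control and 0.988, 1.57, 2.76 and 1.40 CPM in knockdown-labelled libraries, from 2 to 57 counts a library.

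The kinase module, which sits on Mediator reversibly and blocks its contact with Pol II, has 2 pairs of paralogues among the members. Med13 ties the module to Mediator and was at 174, 112, 82.4 and 114 CPM in control and 112, 147, 91.6 and 113 CPM in knockdown-labelled libraries. Its paralogue Med13l was at 41.2, 27.2, 24.8 and 47.3 and 35.6, 28.1, 49.9 and 28.1 CPM. Per kb, Med13l made up 22.6% to 33.8% of the pair in the controls and 19.1% to 40.2% in the knockdown-labelled libraries. Both genes were present in all 8 libraries.

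Med12 and Med12l, which activate the kinase, were low and patchy. Med12 was at 7.22, 0.126, 0 and 0 CPM in control and 0.198, 1.09, 2.76 and 3.59 CPM in knockdown-labelled libraries, from 237, 4, 0 and 0 and 1, 9, 24 and 115 counts. Control replicate 1 held nearly all of the control Med12 reads, and without it the fitted log2 fold change of Med12 moved from 0.07 to 5.42 (4.10 with limma-voom on all 8 libraries). Without any 1 of the other 3 controls it was below 0. Med12l was at 5.45, 1.16, 3.17 and 12.6 and 0, 15.9, 0.345 and 5.37 CPM, with no count in knockdown-labelled replicate 1. The share of Med12l in the pair per kb thus ran from 33.6% to 100% in the controls and from 0% to 90.7% in the knockdown-labelled libraries.

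**Figure D2:**
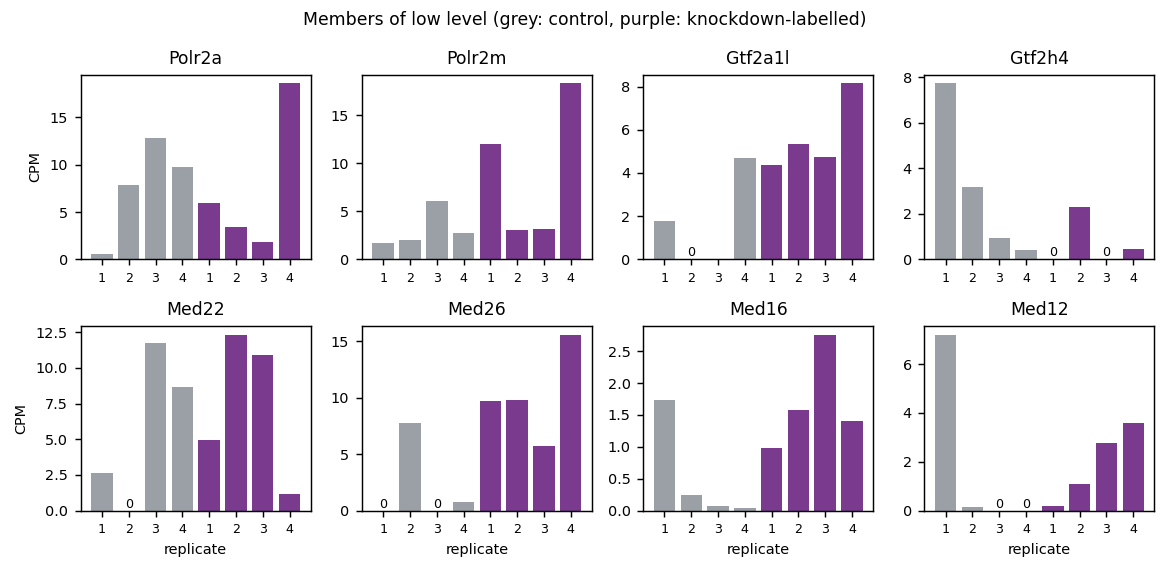
CPM of 8 members of low level in each library (bars, 1 per replicate; grey, control; purple, knockdown-labelled; 0 marks a library without a count). High and low libraries differ from gene to gene: control replicate 1 is the lowest for Polr2a at 0.579 CPM and the highest for Med12 at 7.22 CPM.

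Uneven detection was found among members of low level, but not in all of them. In the members with a control mean under 10 CPM, the control SD ran from 30.6% (Med18) to 195% (Med12) of the mean. Of the 56 members, 6 had no count in at least 1 library, namely Gtf2a1l, Gtf2h4, Med22, Med26, Med12 and Med12l, and all 6 had a control mean under 10 CPM. In the 13 members under 10 CPM the control SD was a median of 90.5% of the mean, against 84.7% over the 7058 tested genes at that level. It was 37.0% against 43.9% in the 12 members at 10 to 50 CPM, 31.8% against 27.6% in the 15 members at 50 to 200 CPM, and 15.6% against 20.5% in the 16 members at 200 CPM or more. The members thus spread more than other genes in 2 of the 4 ranges and less in the other 2. No single library was always the extreme one: control replicate 1 was the highest control for 21 and the lowest for 16 of the 56 members. Knockdown-labelled replicate 1, the shallowest library, was the lowest of its group for 29 members and the highest for 8.

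**Figure D3:**
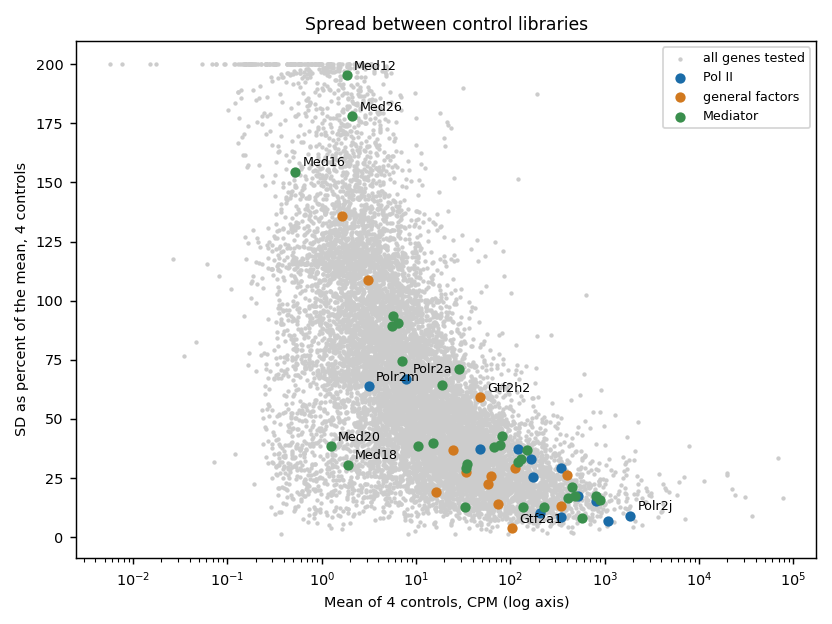
SD of the 4 controls as a percentage of their mean against mean control level (CPM, log axis) for all tested genes (grey) and the members (coloured by complex). Members lie within the cloud of other genes, from Gtf2a1 at 3.91% to Med12 at 195%.

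Level also went with transcript length. Over the 56 members the Spearman correlation of length and control level per kb was −0.78, and over all 12785 tested genes with a length it was −0.35. Both are descriptions across genes that share the same libraries, and dividing by length enters both. Short RNAs such as those of Polr2j, Polr2k and Med21 were high and long ones such as those of Med12, Med12l and Polr2a low, while Med13, with the longest transcript of all (10546 bases), stood at 11.5 CPM per kb, against 0.269 for Med12. The longest transcripts gave −0.75 and −0.34.

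**Figure D4:**
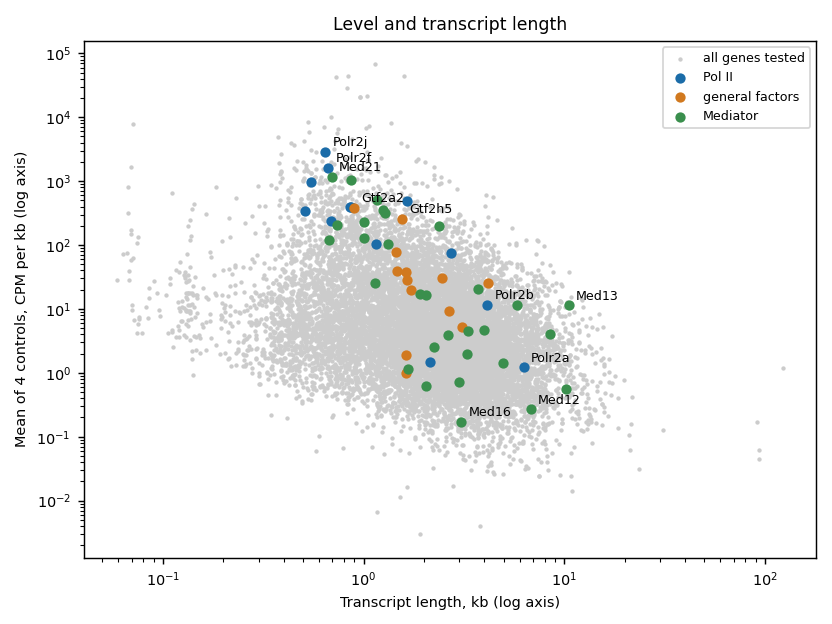
Mean control level in CPM per kb (log axis) against transcript length in kb (log axis), for all tested genes (grey) and the members (coloured by complex). The members tend to be lower as length rises, with a Spearman correlation of −0.78. Polr2j stands at 2902 CPM per kb and Med12 at 0.269 CPM per kb, while Med13, with the longest transcript, stands at 11.5 CPM per kb.

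No member passed the transcriptome-wide test of the groups. The edgeR quasi-likelihood test over 13146 genes called 0 of the 56 members at an adjusted p under 0.05, against 0% of all genes, and every member had an adjusted p of 1. At an unadjusted p under 0.05 it gave 0 of 56 members, where 2.81% of all genes passed (1.1% higher and 1.71% lower). DESeq2 called 0 members at an adjusted p under 0.05 (0.154% of all genes) and 0 at an unadjusted p (4.29%). Limma-voom called 0 members at an adjusted p under 0.05 (0% of all genes) and 2 at an unadjusted p, Gtf2a1l and Med26, against 6.21% of all genes. The common biological coefficient of variation of the fit was 0.987.

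The unadjusted count moved when 1 library was left out, while the adjusted count of members stayed at 0. It was 4 without control replicate 2 (Med11, Gtf2b, Med17 and Med26, with 3.46% of all genes), and 3 without knockdown-labelled replicate 1 (Gtf2h1, Gtf2a2 and Med30, with 4.81% of all genes). It was 2 without control replicate 1 (Med16 and Med12, 4.64%), 1 without control replicate 3 (Polr2b, 3.63%) and 1 without knockdown-labelled replicate 3 (Med6, 3.55%). It was 0 without control replicate 4 (4.09%) and without knockdown-labelled replicates 2 (3.12%) or 4 (3.28%). With replicate 4 as the only knockdown-labelled library it was 1 (Gtf2e1, 3.62%).

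The members were evenly divided in direction, with 28 positive and 28 negative log2 fold changes (50%) where 46.6% of all tested genes were positive. Their median log2 fold change was −0.02, and that of all tested genes was −0.05. It was −0.04 in the 13 Pol II genes, 0.08 in the 13 general factor genes and −0.05 in the 30 Mediator genes. The summed level of the 56 members was 11885, 11739, 11002 and 12578 CPM in control replicates 1 to 4 and 11020.4, 11665, 11085 and 11646 CPM in knockdown-labelled replicates 1 to 4. The knockdown-labelled sums all lay inside the control range. The summed Pol II level was 5703 ± 305 CPM in control and 5476 ± 350.4 CPM in knockdown-labelled libraries, and that of the general factors 1282 ± 65.2 and 1316 ± 88.1 CPM.

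In 2 of the 56 members (3.57%) the groups did not overlap, against 2.98% of all genes. Polr2c was above all controls in all 4 knockdown-labelled libraries, at 179.8, 231, 201 and 206 CPM in control and 234, 235, 246 and 261 CPM in knockdown-labelled libraries, where 1.44% of all genes showed that pattern. Polr2j was below all controls in all 4, where 1.54% of all genes did. The differences were small and neither passed: 119% of the control level (95% interval 94.4% to 151%) for Polr2c (edgeR log2 fold change 0.26, SE 0.15, unadjusted p = 0.124, adjusted p = 1) and 84.4% of the control level (95% interval 69.8% to 102%) for Polr2j (−0.25, SE 0.12, unadjusted p = 0.0739, adjusted p = 1). With library totals alone as the scaling, Polr2j overlapped, while Polr2c and Gtf2h1 lay above all controls. The share of all genes with such a pattern was not counted under that scaling, so no background stands beside it. Polr2j counts were not whole in 8 libraries and Polr2c counts in 6, and both overlap genes on the opposite strand (Polr2j with Gm43604 and Lrwd1, Polr2c with Dok4).

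Of the remaining members, the smallest unadjusted p-values in the edgeR fit belonged to Med30, Gtf2h1 and Polr2b. Med30 was at 66.3% of the control level (95% interval 40.2% to 109%), Gtf2h1 at 129.8% of the control level (95% interval 94.3% to 178%) and Polr2b at 144% of the control level (95% interval 91.1% to 229%). Polr2b was at 27.1, 54.1, 68.9 and 41.5 CPM in control and 73.9, 75.6, 61.9 and 65.3 CPM in knockdown-labelled libraries, where control replicate 3 alone reached the knockdown-labelled range. The largest fitted folds came from members with libraries at or near 0, where they depend on the fit: Med26 (log2 fold change 2.27, SE 1.74), Gtf2h4 (−2.15, SE 1.75), Gtf2a1l (1.79, SE 1.63) and Med16 (1.67, SE 1.36). Med26 was at 6.11 with limma-voom, 5.94 with the replicate block and 5.38 without control replicate 2. Gtf2a1l was at 4.64 with limma-voom, 4.26 with the replicate block and 3.20 without control replicate 4.

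The data bound a change tightly for abundant members and loosely for scarce ones. The 95% interval of the fold change stayed within 2-fold either way in 30 of the 56 members and within 1.5-fold in 10, namely Polr2d, Polr2j, Polr2f, Polr2l, Gtf2a1, Med7, Med10, Med31, Med27 and Med29. Polr2f, for example, was at 108% of the control level (95% interval 89.7% to 129%). In the other 26 members the interval reached 2-fold or more, and for Polr2a it ran from 20.7% to 449% of the control level, so that a change of that size was not detectable. The fitted log2 fold change of Polr2a was −0.05 with edgeR and 0.70 with limma-voom, and so had no settled direction. By level, the median half-width of the interval was 1.33-fold in the 16 members at 200 CPM or more and 8.17-fold in the 13 under 10 CPM.

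**Figure D5:**
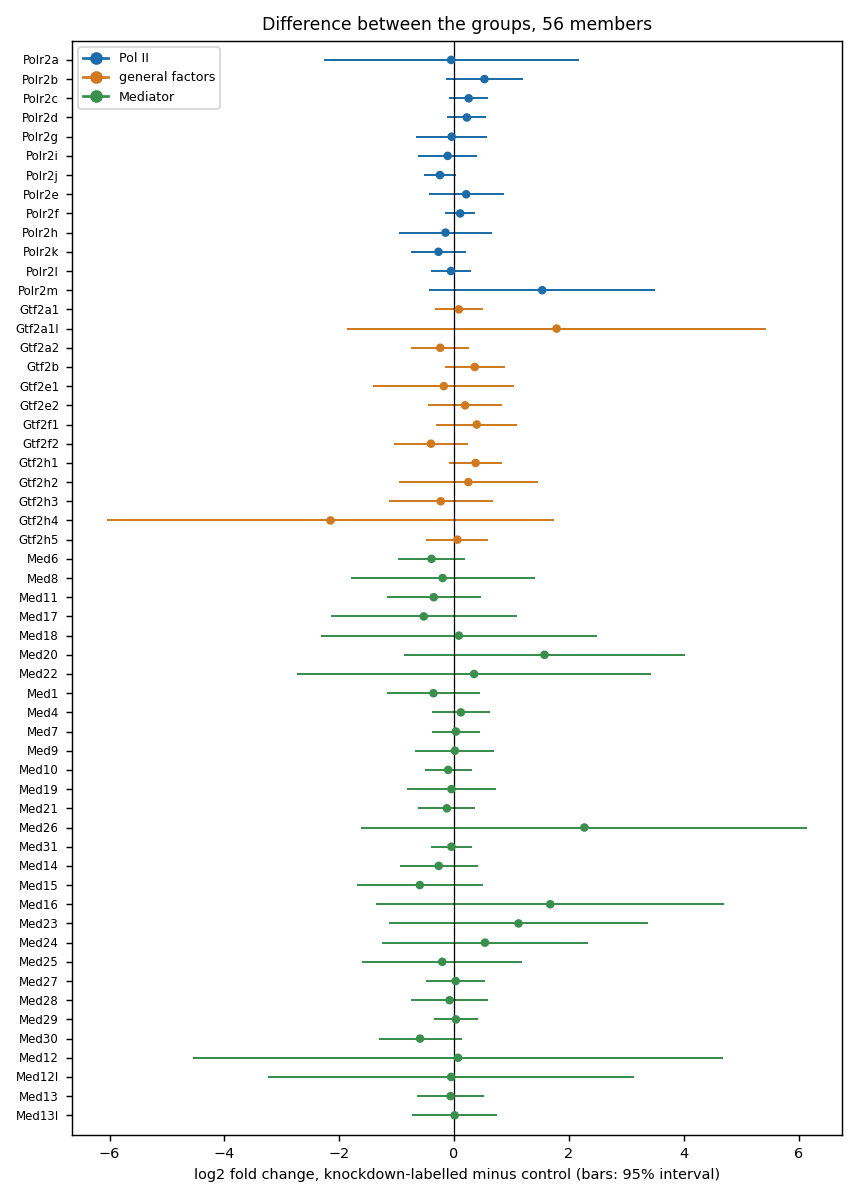
Log2 fold change (knockdown-labelled minus control, points) with its 95% interval (bars) for each of the 56 members, coloured by complex. All 56 intervals cross 0; they are short for abundant genes such as Polr2f and span several log2 units for scarce ones such as Gtf2h4, Med26 and Med12.

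The partners of these complexes outside the name rule were read from lists of 101 genes, of which 98 were tested and 0 passed at an adjusted p under 0.05 (0% of all genes) or at an unadjusted p under 0.05 (2.81% of all genes) in edgeR. TBP, which binds the TATA box within TFIID, had the relatives Tbpl1 and Tbpl2. Tbp was at 208, 147, 116 and 174 CPM in control and 96.8, 180.4, 127 and 251 CPM in knockdown-labelled libraries, Tbpl1 at 98.1 ± 36.3 and 110.01 ± 14.6 CPM, and Tbpl2, the oocyte form, at 8.40, 17.0, 19.8 and 0.997 and 18.0, 8.71, 8.75 and 23.3 CPM. Tbpl2, like its partner Gtf2a1l, was low, and its control replicate 4 lay below all other libraries. Of 19 TBP and TFIID genes 18 were tested, with 11 positive and 7 negative log2 fold changes (median 0.05), and Taf3 had the smallest p (40.7 ± 15.8 and 25.8 ± 3.85 CPM, log2 fold change −0.66, SE 0.33).

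The enzymes of TFIIH and of the Mediator kinase module fall outside the name rule. Cdk7, the TFIIH kinase, was at 94.6, 43.2, 43.6 and 68.9 CPM in control and 77.0, 121, 109 and 85.8 CPM in knockdown-labelled libraries, with overlapping groups (log2 fold change 0.65, SE 0.30). The helicase Ercc3 was at 5.21, 9.35, 8.04 and 4.50 and 0.988, 18.8, 8.29 and 6.46 CPM, and Ercc2 at 1.25, 1.41, 0.342 and 0 and 0, 0, 0 and 2.40 CPM. Of the Mediator kinase, Cdk8 was at 53.6 ± 18.5 and 41.6 ± 14.1 CPM, its paralogue Cdk19 at 4.96 ± 1.27 and 7.69 ± 3.31 CPM, and their cyclin Ccnc at 110.3, 73.2, 116 and 113 and 91.2, 246, 145 and 171 CPM. Ccnc had a log2 fold change of 0.66, SE 0.30 and an unadjusted p of 0.0506, with knockdown-labelled replicate 1 inside the control range.

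Factors that act on Pol II after initiation gave no call. Of 27 elongation and pausing factors 16 were positive and 11 negative (median log2 fold change 0.05), and Paf1, of the complex that travels with Pol II, had the smallest p at 66.0 ± 23.0 CPM in control and 42.5 ± 6.56 CPM in knockdown-labelled libraries (−0.64, SE 0.29). Of 9 assembly and import factors 4 were positive and 5 negative (median −0.02), with Gpn3 at 62.3 ± 22.4 and 82.4 ± 19.3 CPM. Of 5 phosphatases of the C-terminal domain 1 was positive and 4 were negative (median −0.24), and the one positive, Ctdsp2, had reads in 1 of 4 control and 3 of 4 knockdown-labelled libraries (0.471 CPM in control replicate 2).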

How the data were processed

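RNA was measured by sequencing in 8 libraries of pooled 2-cell embryos, made with TRIzol and the NEBNext Ultra RNA kit per the labels' protocols. The authors deposited expected counts without normalisation. They list RSEM 1.2.28, STAR 2.7.3a and Trim Galore 0.6.10 on GRCm38 (mm10), per the submitters' processing notes. The sources used here do not give the annotation release, the strand setting or the handling of duplicate reads, and intervals and limits at 0 counts (3 counts) cover no amplification. RSEM divides shared reads: 30 members had counts that were not whole, 26 overlap a gene on the opposite strand and 12 one on the same strand.

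Counts were rounded (4.22% of values altered). Genes were kept by filterByExpr (minimum count 10, total 15), scaled by TMM and compared with edgeR 4.0.16 (quasi-likelihood, robust) in R 4.3.3, adjusted by Benjamini-Hochberg over 13146 genes. The method was tested on simulated data with far less spread between libraries than in these. That test does not show the power in these data, whose common biological coefficient of variation was 0.987. Libraries held 4726159 to 43748621 counts, and the median interval was 1.33-fold in members at 200 CPM or more and 8.17-fold under 10 CPM. Alternatives were library totals, DESeq2 size factors, no filter, DESeq2 1.42.0, limma-voom 3.58.1, a replicate block, thinning, knockdown-labelled replicate 4 alone, and each library left out. Lengths, positions and overlaps came from GENCODE M21, and start windows from RefSeq.

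The members and gene lists were chosen with earlier results of these data known. Genes described in full are Polq, 11 fixed members, the member with the highest level and the one with the smallest p in each role, members whose groups did not overlap, Tbp, Tbpl1, Tbpl2, and the gene with the smallest p in each list of partners; other members are given when their class is described. Same-numbered libraries did not deviate together, and the closing section gives that check.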

Additional observations from a re-analysis of the deposited data

Results flagged for a closer look

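Of 88 groups of 4 libraries examined, 7 held 1 library whose gap to the next exceeded 0.829 of the group's range. That cut is passed by about 1 in 20 groups of normally distributed values. The rate does not hold for genes with libraries at or near 0, such as Ctdsp2, Med12 and Med26. The 7 are therefore a description and were not tested against chance. Med14 was at 89.2 CPM in knockdown-labelled replicate 3, against 54.7 to 58.8 CPM in the other 3. Med12 was at 7.22 CPM in control replicate 1, against 0 to 0.126 CPM. Gtf2h1 was at 76.6 CPM in knockdown-labelled replicate 1, against 101 to 104 CPM. Med26 was at 7.75 CPM in control replicate 2, against 0 to 0.719 CPM. Of the partners, Ccnc was at 73.2 CPM in control replicate 2, against 110 to 116 CPM. Ctdsp2 was at 0.471 CPM in control replicate 2, against 0 in the other controls. Ints9 was at 10.9 CPM in knockdown-labelled replicate 1, against 13.8 to 14 CPM.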

How the results depend on the processing

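The number of members called stayed at 0 under all 16 alternatives, and the number with a positive log2 fold change ran from 23 to 34. DESeq2 called 20 genes over the whole table and edgeR 0. The Pol II median log2 fold change, −0.04 as reported, was 0.13 with limma-voom, 0.15 after thinning and 0.26 with knockdown-labelled replicate 4 alone, and ran from −0.13 to 0.13 with 1 library left out; the cause was not tested. The largest shifts of the median of all genes were −0.31 with that library alone and −0.12 with no filter. Same-numbered control and knockdown-labelled libraries had correlations of their deviations of −0.08, 0.00, −0.01 and 0.01. This gives no sign that the numbers pair the samples but does not show that they are unpaired. With the replicate block 0 members were called, and the median log2 fold change of the members stayed at −0.02.

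Polq and 13 of the 39 other single genes changed sign in at least 1 alternative, and 26 kept it in all. None of the 14 passed the threshold of an adjusted p under 0.05 in any fit. Med12 had an unadjusted p under 0.05 in edgeR without control replicate 1. The cause of the sign changes was not tested. With limma-voom the log2 fold change was 0.70 for Polr2a, −0.07 for Med13l and −0.02 for Med27. After thinning it was 0.32 for Polr2a and 0.17 for Med12l. Without a filter it was −0.03 for Med13l, −0.01 for Med27 and −0.01 for Tbp, and with the replicate block −0.03 for Tbp. With knockdown-labelled replicate 4 alone it was 0.07 for Polq, 1.27 for Polr2a, −0.17 for Gtf2a1, −0.32 for Med13l, −0.02 for Med27 and −0.11 for Tbpl1. With 1 library left out it ran from −1.07 to 0.30 for Polr2a, −0.47 to 0.04 for Med14, −0.44 to 5.42 for Med12, −0.21 to 0.18 for Med13, −0.01 to 0.16 for Gtf2a1, −1.51 to 0.73 for Med12l, −0.20 to 0.18 for Med13l, −0.09 to 0.22 for Gtf2h5, −0.32 to 0.00 for Med21, −0.19 to 0.17 for Med27, −0.26 to 0.21 for Tbp, −0.01 to 0.33 for Tbpl1 and −0.04 to 0.74 for Tbpl2. Knockdown-labelled replicates 1 to 3 held 4726159, 8627403 and 8100969 counts, and every control at least 33311665. In the controls the SD of members under 10 CPM was a median of 90.5% of the mean. The part of depth in the wide intervals of scarce members was not tested.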

Other observations

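The other polymerases and the Integrator complex, which cleaves RNA at stalled Pol II, were measured in the same libraries. Of 6 subunits of Pol I alone, 4 had a log2 fold change above 0 and 2 below (median 0.24), and their summed level ran from 182 to 644 CPM in control and from 221 to 539.9 CPM in knockdown-labelled libraries. Cd3eap of that group was at 20.4 ± 5.87 CPM in control and 32.4 ± 15.6 CPM in knockdown-labelled libraries. Both subunits common to Pol I and Pol III were positive, with Polr1c at 123, 76.5, 113 and 135 and 66.8, 210.4, 168 and 146 CPM. Of 10 tested subunits of Pol III alone, 6 were positive and 4 negative (median 0.21), and Polr3a, its largest subunit, was at 27.8 ± 5.34 and 45.5 ± 19.5 CPM. Per kb, Polr3a stood at 5.93 CPM in the controls, above Polr2a at 1.24.

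Of 13 tested Integrator genes, 8 were positive and 5 negative (median 0.30). In Ints9, which pairs with the nuclease of the complex, the groups did not overlap, at 32.7, 28.1, 14.6 and 14.7 CPM in control and 10.9, 14.04, 14.04 and 13.8 CPM in knockdown-labelled libraries (edgeR log2 fold change −0.77, SE 0.41, unadjusted p = 0.0881, adjusted p = 1), where 1.54% of all genes lay below the controls.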
